A study of Mus musculus with 40 samples.

Results

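Hearts of mice that had lost Mdm2 were compared with hearts of mice that kept it, 24 hours after p53 had been activated. All heart libraries of the series were taken, 8 of 40 libraries, and no value chose them. Of these, 5 came from FMTg mice (Mdm2FM/- Cag-CreERTg, the genotype in which Mdm2 is lost) and 3 from Tg mice (Mdm2+/- Cag-CreERTg, which retain Mdm2). The mice were of strain C57BL/6j and 60 days old. Both groups carried 1 null Mdm2 allele and the same Cre transgene, so the controls also had a single working copy of Mdm2, and neither a mouse with 2 working copies nor a Cre-free heart was analysed here. Cag-CreER is a Cre recombinase joined to an estrogen receptor domain, active only once a ligand of that receptor is given, and the Cag promoter is active in most cell types, so the deletion was not aimed at cardiomyocytes. The activating agent is not given in the sources used here. Of the 18024 genes in the deposited table, 15769 had a heart mean at least 1 log2 unit above the lowest value of the table and were tested.

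Mdm2 is the ubiquitin ligase that binds the transcription factor p53 (encoded by Trp53), blocks it and marks it for destruction. When Mdm2 is lost p53 protein accumulates and switches on target genes for cell cycle arrest, cell death, DNA repair and metabolism, among them Mdm2 itself. Control is largely at the level of p53 protein, which RNA sequencing does not measure. Adult cardiomyocytes rarely divide, and the heart draws most of its energy from fatty acids burned in mitochondria.

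Depth ran from 15.3 to 16.3 M (mega) reads in the Tg libraries and from 16.7 to 29.0 M in the FMTg libraries. The tissue label held in the files: 24 sarcomere genes took 5.95% to 12.4% of all reads per library, and ventricular cardiomyocyte markers took 1.11% to 4.05%. Of the FMTg libraries 3 stood apart. FMTg replicate 2 was the low end of both ranges, with 0.393% of reads on atrial markers against 0.0787% to 0.105% in Tg. FMTg replicate 4 and FMTg replicate 5 had reads of Y-linked genes (summed share 0.0187% and 0.0238%, at most 2.46e-05% elsewhere), had 6.82% and 1.04% of reads on liver markers (at most 0.0369% elsewhere), and had fewer genes with a read at an equal depth of 15.3 M reads (15126 and 15325, against 16314 to 16966 in the other 6). The first principal component, with 51.5% of the variance, separated these last 2 libraries, and the second, with 20.9%, separated FMTg replicate 2. Ovary libraries were made from all 3 Tg mice and from the other 3 FMTg mice, so sex cannot be told apart from these 2 FMTg libraries. Exocrine pancreas markers took 0.155% to 0.426% of reads in the 3 Tg hearts, 0.137% and 0.433% in FMTg replicates 1 and 2 and at most 0.0189% in FMTg replicates 3 to 5, and their part in the results was not tested. Medians of the lists described are given without FMTg replicates 4 and 5, or without FMTg replicate 2, where their sign or size rests on these libraries.

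**Figure D1:**
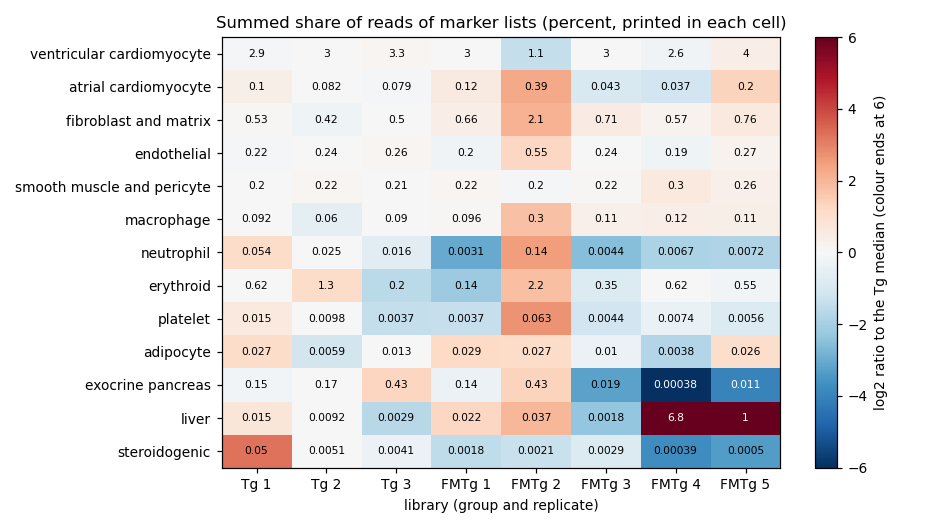
Summed share of reads (percent, printed in each cell) of lists of cell type and tissue markers in the 3 Tg and 5 FMTg heart libraries. Colour gives the log2 ratio to the median of the Tg libraries and ends at 6. Liver markers reached 6.82% in FMTg replicate 4 and 1.04% in FMTg replicate 5, and FMTg replicate 2 had the lowest ventricular share (1.11%) and the highest fibroblast share (2.14%).

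The targeted gene comes first, with values in normalised reads (reads divided by the size factor of the library). Mdm2 stood at 1069, 1140.0 and 1033 normalised reads in the Tg hearts and at 1929.7, 3113, 2098, 1424 and 1318 in the FMTg hearts, replicates 1 to 5. Every FMTg heart was above every Tg heart, by 0.80 ± 0.26 (SE) on the log2 scale. The limma adjusted p was 0.76 and the two-sided exact permutation p was 0.0357, or 0.0536 adjusted over the 3 genes tested this way, so the difference did not pass. Which exons of Mdm2 the deletion takes is not given in the labels, and p53 itself drives Mdm2 transcription, so a total over the whole gene does not check the genotype. Trp53 itself stood at 224, 177 and 153 against 156, 267, 176, 269.6 and 153, with overlapping groups (0.11 ± 0.26, exact permutation p = 0.625). The sign for Trp53 turned when Tg replicate 3 was left out (-0.01). Cdkn1a, which encodes the cell cycle inhibitor p21, stood at 1029, 966 and 1172 against 1581, 2428, 1728, 1475 and 2092. All FMTg hearts were above all Tg hearts (0.79 ± 0.18). The exact permutation p of 0.0179 is the smallest that the 56 divisions of 8 libraries can give, and adjusted over the 3 genes it was 0.0536.

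Of 15769 genes 3 rose in the FMTg heart (0.019% of those tested) and 0 fell (0.0%) at an adjusted p below 0.05 with limma. Without adjustment 516 genes (3.27%) were higher and 482 (3.06%) were lower at p below 0.05, and voom on the recovered reads also called 3 higher and 0 lower. All 3 called genes are known p53 targets of the cell death list. Eda2r, a receptor of the tumour necrosis factor family that binds ectodysplasin A2, is at chromosome X, positions 97333840 to 97377216 (GRCm38). It stood at 175, 155 and 142 normalised reads in Tg and at 941, 1107, 954, 970.0 and 1125 in FMTg, so the groups lay far apart and each was tight. The rise was 2.65 ± 0.13 on the log2 scale, a fold of 6.28, with a limma adjusted p of 2.19e-04. Eda2r was called in 8 of 8 fits that left out a library and also without FMTg replicates 4 and 5 (2.62, adjusted p = 0.0119).

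Phlda3, a small pleckstrin homology protein that restrains the kinase Akt, is at chromosome 1, positions 135766119 to 135769136. Its Tg values of 167, 169 and 177 were the closest together of the 3 called genes, and its FMTg values were 724, 1045, 672, 785 and 779. Phlda3 rose by 2.17 ± 0.16, a fold of 4.51 (limma adjusted p = 0.00326). Aen, an exonuclease that cuts DNA during apoptosis, is at chromosome 7, positions 78895854 to 78911209. It stood at 481, 499.7 and 527 in Tg and at 1236, 1128, 1204, 1284 and 1525 in FMTg, and rose by 1.33 ± 0.13, a fold of 2.51 (limma adjusted p = 0.0163). Both changes kept their size without FMTg replicates 4 and 5 (2.18 and 1.23), but with 6 libraries the limma adjusted p was 0.0979 for Phlda3 and 0.0678 for Aen. Phlda3 also missed the threshold without Tg replicate 2 (0.0517), and Aen passed in only 2 of 8 fits that left out a library, with adjusted p up to 0.229.

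**Figure D2:**
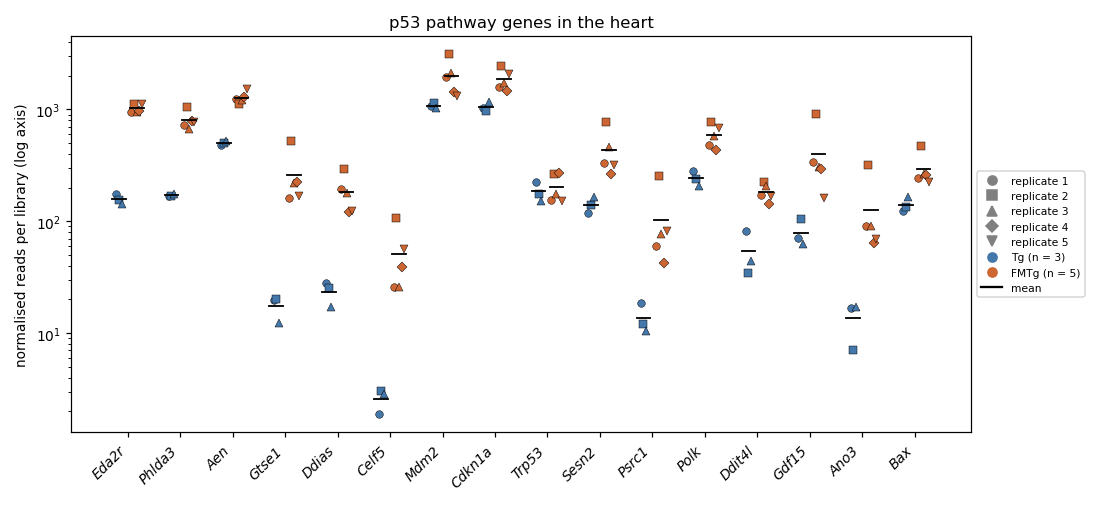
Normalised reads (log axis) of 16 p53 pathway genes in each heart library, with the mean of each group as a bar and replicates by marker shape. The FMTg libraries lie above all Tg libraries for 15 of the genes and overlap them for Trp53, and FMTg replicate 2 is the highest for many of them, for example 519 for Gtse1.

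The promoters of these genes were read for the core of the p53 response element, which is a pair of 4-letter words with 6 bases between them, on either strand. Each word has C first, G last and any mix of A and T in between, so the words are CAAG and CATG and CTAG and CTTG. A window of 300 bases, 250 before to 50 after each RefSeq transcript start (GRCm38.p6), was searched. Such a pair was in 7.22% of 32851 windows, for 6.71% of 12207 heart-tested genes with a window, and for 12 of 80 tested p53 list genes with a window (15%). These pairs are short and frequent, and a match is a description of letters. The 6 stretches below come from members of the p53 lists that were named, Cdkn1a in advance and the others for their small p in these data. They are therefore not a neutral sample of the 12 list genes with a pair. The 4-letter words are in capitals, and each stretch is written 5′ to 3′ on the strand of the gene.
Aen, chr7:78895932-78895961, plus strand: aagccgggCTTGtccgggCAAGgagcttcc
Gtse1, chr15:85859940-85859969, plus strand: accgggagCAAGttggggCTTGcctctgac
Cdkn1a, chr17:29090923-29090952, plus strand: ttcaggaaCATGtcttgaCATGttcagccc
Plk2, chr13:110395033-110395062, plus strand: tgctcgctCTTGctcgcaCAAGcgaagcag
Zfp365, chr10:67912701-67912730, minus strand: tagcaagaCTAGgctgggCAAGactggcac
Rap2b, chr3:61364377-61364406, plus strand: tccacttaCAAGcacacaCAAGcaagactg
The windows of Eda2r and Phlda3, the genes with the largest called rises, and that of Mdm2 held no such pair, which says only that these letters are not in these windows. The 250 bases before the start are shown for Eda2r and Phlda3, in lower case because no pair was found.
Eda2r, chrX:97377210-97377459, minus strand: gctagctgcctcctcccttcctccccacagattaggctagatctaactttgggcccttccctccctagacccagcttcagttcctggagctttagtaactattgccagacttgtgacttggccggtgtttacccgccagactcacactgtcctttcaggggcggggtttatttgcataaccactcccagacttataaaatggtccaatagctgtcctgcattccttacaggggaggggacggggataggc
Phlda3, chr1:135765835-135766084, plus strand: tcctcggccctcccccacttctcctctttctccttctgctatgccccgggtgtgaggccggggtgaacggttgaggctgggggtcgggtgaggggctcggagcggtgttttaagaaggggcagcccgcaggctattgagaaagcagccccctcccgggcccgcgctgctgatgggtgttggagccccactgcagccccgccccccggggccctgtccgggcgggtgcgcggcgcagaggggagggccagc

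Across 7 lists of p53 targets, 93 genes were tested, and counts are given of genes whose FMTg libraries all lay above all Tg libraries. Over all genes tested that held for 540 (3.42%), and for 551 (3.49%) all FMTg libraries lay below. In the 7 lists together no gene lay below in all libraries. The median of all genes tested was -0.01 on the log2 scale. The lists were compiled with earlier results of these data known, so their counts are descriptions. The summed share of reads did not overlap between the groups for the feedback list (0.106% to 0.112% in Tg, 0.196% to 0.258% in FMTg, most of it from Ccng1) and the cell death list (0.0412% to 0.0433%, 0.0602% to 0.100%). It overlapped for the other 5 lists, and for the arrest list FMTg replicate 4 (0.0342%) was below every Tg heart (0.0376% to 0.0476%). In normalised reads the arrest list of that library (6634) lay within the Tg range (5454 to 7324).

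The cell death list had the highest median of the 7. Of 17 members tested, 16 had a higher mean in FMTg (48.6% over all genes tested), 8 lay above in all libraries, and the list median was 0.82. Bax, which opens the mitochondrial outer membrane, stood at 124, 134 and 165 against 243, 467, 265, 257 and 223. Its groups did not overlap, but the difference of 0.97 ± 0.26 did not pass (limma adjusted p = 0.744). Ei24, an endoplasmic reticulum protein, was higher by 0.92 and Siva1, a death-domain partner of receptors of the tumour necrosis factor family, by 0.47, neither passing. The highest Ei24 values were in FMTg replicates 4 and 5 (3011 and 1908). Bbc3, which encodes the BH3-only protein Puma, stood at 52.5, 66.8 and 53 against 90.2, 163, 86.9, 123 and 70.1. Fas, the death receptor, overlapped between the groups (0.15 ± 0.16). Bbc3 and Fas were named for their prominence, after their values were seen.

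In the cell cycle arrest list 5 of 13 tested members lay above in all libraries and the median was 0.76. Gtse1, which is bound to microtubules and shuttles p53 out of the nucleus, had the largest difference. It stood at 19.7, 20.2 and 12.3 in Tg and at 161, 519, 218, 226 and 169 in FMTg. All FMTg hearts were well above Tg (3.39 ± 0.39), with a limma adjusted p of 0.0605. Gtse1 passed in 1 of 8 fits that left out a library (0.0141, without FMTg replicate 2), with adjusted p up to 0.550 in the others, and with voom the adjusted p was 0.795. Psrc1, a spindle protein, was at 18.7, 12.1 and 10.4 against 60.2, 255, 76.5, 42.4 and 81.5 (2.24 ± 0.52, limma adjusted p = 0.641). Sesn2, a stress sensor that restrains the growth kinase mTORC1, was at 119, 139 and 164 against 329, 779, 457, 267 and 319.5 (1.48 ± 0.33, limma adjusted p = 0.641). For both genes FMTg replicate 2 was the highest library. Plk2, a polo-like kinase, was higher by 0.76 and did not pass. Sesn1 and Btg2, other arrest genes named after their values were seen, overlapped between the groups (-0.19 and 0.53).

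The feedback list held 8 tested genes, 3 of them above in all libraries. Ccng1, an abundant cyclin that recruits a phosphatase to Mdm2, stood at 9164, 11427 and 9384 against 21817, 15679, 18744, 32981 and 40271. Its highest values were in FMTg replicates 4 and 5 (1.29 ± 0.34, limma adjusted p = 0.743). Trp53inp1, a nuclear partner of p53, stood at 1237, 1033 and 1411 against 2181, 4972, 2540.0, 2149 and 2072 (1.10 ± 0.29, limma adjusted p = 0.744). Mdm4, the relative of Mdm2 that also blocks p53, overlapped between the groups (-0.06 ± 0.35).

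The DNA repair list was divided. Of 13 tested members 5 lay above in all libraries while 7 had a lower mean in FMTg, and the median was -0.06, or 0.16 without FMTg replicates 4 and 5 and 0.04 without FMTg replicate 2. Ddias, which protects damaged cells from apoptosis, stood at 28.1, 25.3 and 17 against 195, 291, 178, 121 and 123, a clear separation (2.62 ± 0.33, limma adjusted p = 0.101). Polk, a DNA polymerase that copies past lesions, stood at 282, 238 and 207 against 477, 768, 581, 432 and 685 (1.24 ± 0.22, limma adjusted p = 0.326). Mgmt, which removes alkyl groups from guanine, was higher by 1.16 and Zfp365, a zinc finger protein, by 1.82. Mgmt was highest in FMTg replicates 4 and 5 (339 and 308) and Zfp365 in FMTg replicate 2 (276). The nucleotide excision factors Ddb2 and Xpc, named after their values were seen, overlapped between the groups (-0.42 and -0.08).

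Of 15 metabolic and redox targets 1 lay above in all libraries, and the median was 0.25, or 0.02 without FMTg replicates 4 and 5. That gene was Ddit4l, an inhibitor of mTORC1 signalling, at 82.5, 34.4 and 44.4 against 171, 222, 205, 143 and 169 (1.72 ± 0.29, limma adjusted p = 0.32). Of 15 secreted and membrane targets 4 lay above in all libraries, with a median of 0.55. Gdf15, a circulating stress hormone that lowers appetite, stood at 70.3, 105 and 62.4 against 339, 904, 308, 291 and 162. All FMTg hearts were higher, FMTg replicate 2 the most (2.05 ± 0.48, limma adjusted p = 0.641). Ano3, an anoctamin, was higher by 2.56 ± 0.53 and Slc19a2, a thiamine transporter, by 1.06 ± 0.19, neither passing. Among 12 other targets of mouse tissues 5 lay above in all libraries, with a median of 0.53. Celf5, an RNA-binding protein, stood at 1.87, 3.03 and 2.84 normalised reads, near the detection limit, against 26.1, 108, 26.1, 39.4 and 56.8 (2.75 ± 0.47, limma adjusted p = 0.32). Dcxr, a carbonyl reductase, was higher by 1.17, Plcd4, a phospholipase, by 1.83, and Arap2, a regulator of small GTPases, by 0.51, and none of these passed. The highest Dcxr values were in FMTg replicates 4 and 5 (1081 and 726).

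Without FMTg replicates 4 and 5, the counts of members above in all libraries were 12 of 17 for cell death, 7 of 13 for arrest, 5 of 8 for feedback, 6 of 13 for repair, 3 of 15 for metabolism, 6 of 15 for secreted and membrane targets and 9 of 12 for the others. Over all genes the share above was then 7.65% and the share below 6.08%. Without FMTg replicate 2 the counts were 8, 5, 3, 5, 2, 4 and 5, against 4.47% above and 5.56% below over all genes.

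**Figure D3:**
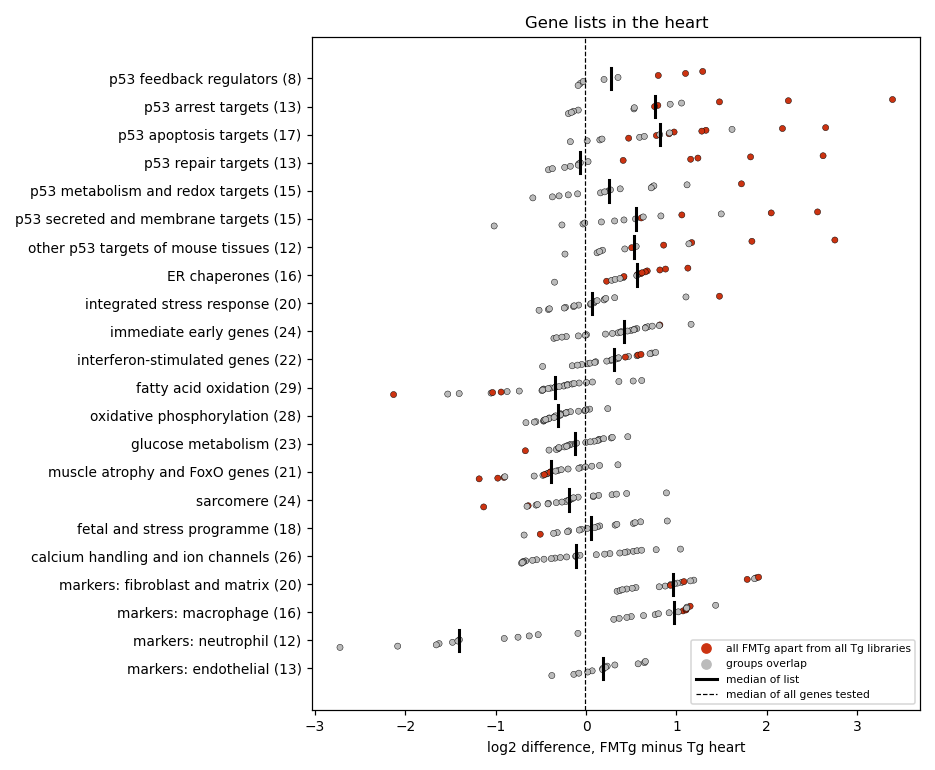
Log2 difference between FMTg and Tg hearts of each tested member of 22 gene lists, with the number tested in brackets. Red points are genes whose FMTg libraries all lie apart from all Tg libraries, black bars are list medians, and the dashed line is the median of all genes tested (-0.01). The medians of the p53 lists run from -0.06 for repair to 0.82 for cell death, and those of fatty acid oxidation (-0.34) and of the atrophy genes (-0.39) lie below 0.

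Many genes of fuel use had lower means in the FMTg heart, and none passed the test. The gene of smallest p among those lower was Scd4, the desaturase of the heart that makes monounsaturated fatty acids. It stood at 709, 1490.0 and 822 in Tg and at 189, 106, 241, 228 and 165 in FMTg, 5.19-fold lower with no overlap (-2.38 ± 0.32, limma adjusted p = 0.138). Pdk4, the kinase that shuts the entry of pyruvate into mitochondria during fasting, stood at 9549, 23364 and 15599 against 3402, 5286, 5300.0, 1618 and 3215. The lowest Tg heart was above the highest FMTg heart, though the Tg values spread widely (-2.13 ± 0.43, limma adjusted p = 0.563). Over all genes tested 8100 of 15769 had a lower mean in FMTg and 3.49% lay below in all libraries. The median of 29 tested fatty acid oxidation genes was -0.34 (-0.55 without FMTg replicates 4 and 5, -0.13 without FMTg replicate 2). Of these genes 24 had a lower mean in FMTg and 3, among them Pdk4, lay below in all libraries. The other 2 of these were Acot2, a mitochondrial thioesterase (-0.94 ± 0.27), and Plin5, a coat protein of lipid droplets (-1.03 ± 0.34). Ucp3, a mitochondrial carrier of fasted muscle, was lower by mean (-1.40 ± 0.41) with overlapping groups. Among 28 oxidative phosphorylation genes 25 had a lower mean, with a median of -0.31, but none lay below in all libraries. That median was -0.40 without FMTg replicates 4 and 5 and -0.12 without FMTg replicate 2. Among 23 genes of glucose metabolism the median was -0.12, and it was 0.05 without FMTg replicate 2.

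The genes of muscle atrophy and FoxO signalling, which drive protein breakdown and autophagy in fasted or unloaded muscle, had 7 of 21 tested members below in all libraries, beside 3.49% of all genes, and 18 with a lower mean. The list median was -0.39, and it was -0.37 without FMTg replicates 4 and 5 and -0.41 without FMTg replicate 2. Bnip3, a mitochondrial receptor for autophagy, stood at 9526, 12640.1 and 13910.1 against 6778, 4633, 6327, 6423 and 6266. The groups did not overlap (-0.98 ± 0.19, limma adjusted p = 0.495). Fbxo31, a ubiquitin ligase subunit, was lower by mean (-1.18 ± 0.28), as was Ulk1, the kinase that starts autophagy (-0.46 ± 0.11), both with a limma adjusted p of 0.641. Trim63, the muscle ubiquitin ligase MuRF1, stood at 3406, 5048 and 4712 against 3499, 1786, 2565, 1880.3 and 2226, so that FMTg replicate 1 lay within the Tg range. Zbtb16, a zinc finger repressor that glucocorticoids induce, stood at 2907, 2967 and 4136 against 1937, 1948, 2038, 1587 and 1517. It was lower in all FMTg hearts (-0.87 ± 0.17, limma adjusted p = 0.472), while the list of 16 glucocorticoid targets had 8 members with a higher and 8 with a lower mean. The median of that list was -0.03, but -0.36 without FMTg replicates 4 and 5 and 0.14 without FMTg replicate 2. In all libraries 2 members lay below and 1 above, beside 3.49% and 3.42% of all genes. The summed share of the list did not overlap (0.218% to 0.319% in Tg, 0.141% to 0.211% in FMTg). In normalised reads it did overlap (31245 to 49001 in Tg, 22294 to 38579 in FMTg).

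**Figure D4:**
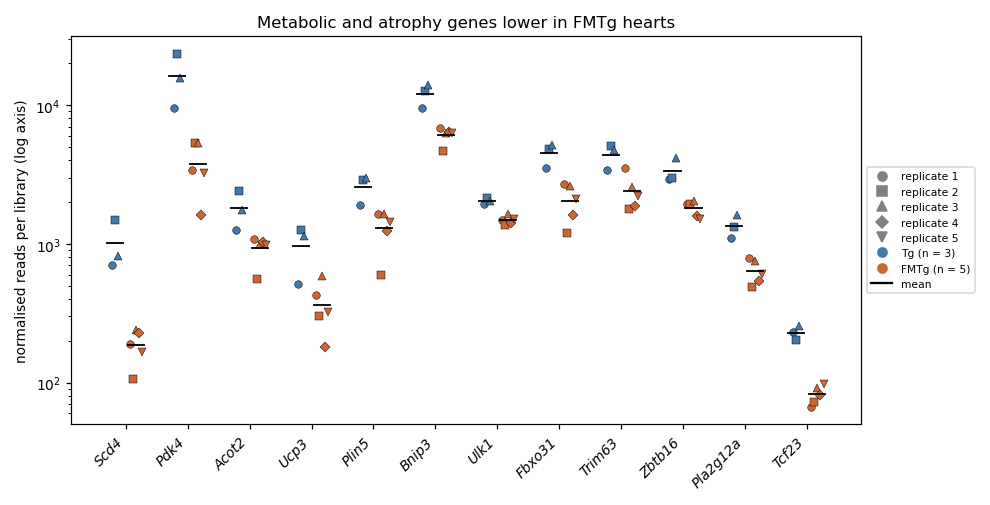
Normalised reads (log axis) of 12 genes of metabolism and atrophy and of the smallest p among genes lower in FMTg hearts, with the mean of each group as a bar and replicates by marker shape. Scd4 ranges from 106 to 241 in FMTg and from 709 to 1490.0 in Tg, and Ucp3 and Trim63 overlap between the groups. No gene shown passed the test.

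Others of the 10 genes of smallest p in the lower direction were Tcf23, a helix-loop-helix factor, Pla2g12a, a secreted phospholipase, Cdh4, a cadherin, and Rims4, a relative of synaptic vesicle proteins. Tcf23 stood at 229.7, 201 and 256 against 67.3, 72, 91.3, 81.8 and 98.5 (-1.42 ± 0.21, limma adjusted p = 0.185). Pla2g12a stood at 1109, 1330.2 and 1622 against 786, 485, 755, 541 and 604 (-1.09 ± 0.20, limma adjusted p = 0.376). For both, every FMTg heart was below every Tg heart. The last 2 were Akr1cl and Hsd3b1, a steroid dehydrogenase. Hsd3b1 stood at 2632, 259 and 206 against 65.7, 8.52, 45.2, 15.1 and 10.1, so that Tg replicate 1 alone held far more than any other heart. The summed share of 9 genes of steroid-producing tissue, a list chosen after the data were seen, was 0.0497% in Tg replicate 1, 0.00512% and 0.00406% in the other Tg hearts and at most 0.00286% in FMTg, and its part in the 2 differences was not tested.

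The contractile and electrical genes of the heart included no called gene, and their medians depended on the libraries that stand apart. The median of 24 sarcomere genes was -0.18, and it was -0.32 without FMTg replicates 4 and 5 and 0.02 without FMTg replicate 2. Of these genes 2 lay below in all libraries and none above, beside 3.49% below and 3.42% above over all genes. Among them was Xirp1, an actin-binding protein of the intercalated disc, at 4337, 4999 and 5783 against 3340.1, 2323, 4182, 2846 and 3685 (-0.64 ± 0.21, limma adjusted p = 0.76). Xirp2, the relative of Xirp1, had a higher mean (0.89 ± 0.28), with overlapping groups. In the fetal and stress programme of the heart, 10 of 18 members had a higher mean and the median was 0.05, which was -0.08 without FMTg replicates 4 and 5. Ankrd1, a stretch-responsive sarcomere protein, stood at 4097, 6288 and 7389 against 10812, 13782, 6932, 12316 and 11174, with FMTg replicate 3 inside the Tg range (0.90 ± 0.27, limma adjusted p = 0.76). Nppb, the ventricular natriuretic peptide and a textbook marker of strain named after its values were seen, overlapped between the groups (-0.69 ± 0.40). Among 26 genes of calcium handling and ion channels none lay apart in either direction, with a median of -0.11 (-0.20 without FMTg replicates 4 and 5, 0.11 without FMTg replicate 2).

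Among the lists described, the endoplasmic reticulum chaperones had the largest share of members above in all libraries, 10 of 16, with a median of 0.56. Over all genes that share was 3.42%. The count was 12 without FMTg replicates 4 and 5 and 10 without FMTg replicate 2, where the share over all genes was 7.65% and 4.47%. Creld2, a secreted helper of protein folding, stood at 254, 206 and 226 against 368, 344, 389, 354 and 317. The FMTg hearts were closely grouped above Tg (0.62 ± 0.14, limma adjusted p = 0.641). Pdia3, a disulfide isomerase, stood at 2477, 2006 and 2078 against 2948, 4294, 3138, 3689 and 3251 (0.65 ± 0.15, limma adjusted p = 0.641). Pdia6, another disulfide isomerase, and Hsp90b1, the chaperone Grp94, were higher by 0.57 and 0.60. None of the 16 passed the test. In the integrated stress response list the median was 0.07 with 1 of 20 above in all libraries, and it was -0.06 without FMTg replicate 2 and 0.13 without FMTg replicates 4 and 5. For the cytosolic heat shock list the median was -0.09 with none above.

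Of 24 immediate early genes 18 had a higher mean (48.6% over all genes tested). Above in all libraries lay 1, Egr3 (0.82 ± 0.33), beside 3.42% of all genes. Dusp1, a phosphatase of stress kinases, was higher by 0.73 with overlapping groups. Of 22 interferon-stimulated genes 3 lay above in all libraries, among them the guanylate-binding protein Gbp3 (0.57 ± 0.20) and the RNA sensor Ifih1 (0.44 ± 0.17), and the list median of 0.31 was 0.12 without FMTg replicate 2. Of 30 proliferation genes none lay apart in either direction, with a median of 0.24 that was 0.04 without FMTg replicate 2. No member of these lists passed the test.

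Mean levels of several lists of markers of other heart cell types differed between the groups, and in bulk tissue more cells of a type and more RNA per cell cannot be told apart. All 20 fibroblast and matrix markers had a higher mean in FMTg (48.6% over all genes tested) and 5 lay above in all libraries (3.42%), with a median of 0.96. Their summed share was 0.423% to 0.526% in Tg and 0.659%, 2.14%, 0.713%, 0.573% and 0.760% in FMTg. FMTg replicate 2 held most, and the groups did not overlap. In FMTg replicate 4, which had the lowest FMTg share, the member Fn1 gave 28717 of 111298 normalised reads of the list. Fn1 stood at 2010 to 3649 in Tg. By share of reads, the place of FMTg replicate 4 above every Tg heart rests on this gene. In normalised reads its list lay above the Tg range (68934 to 77302) also without its Fn1 reads. That library had 6.82% of reads on liver markers, whose part was not tested. Col6a1, a chain of collagen VI, stood at 1879, 1143 and 1069 against 2544, 4788, 2395, 2190.0 and 2699 (1.08 ± 0.29, limma adjusted p = 0.744). Without FMTg replicate 2 the median of the fibroblast and matrix list was 0.61 and 5 markers still lay above in all libraries (4.47% over all genes). Without FMTg replicates 4 and 5 that median was 1.24 and 15 lay above (7.65% over all genes). All 16 macrophage markers also had a higher mean, 4 above in all libraries, with a median of 0.97 that was 0.74 without FMTg replicate 2. Adgre1, the F4/80 antigen, stood at 349.6, 261 and 312 against 535, 1201, 616, 691 and 553 (1.15 ± 0.27, limma adjusted p = 0.641). The summed macrophage share was 0.0596% to 0.0919% in Tg and 0.0956% to 0.304% in FMTg. All 12 neutrophil markers had a lower mean with a median of -1.41, but their share of 0.0155% to 0.0542% in Tg lay between 0.00311% to 0.00723% in 4 FMTg hearts and 0.145% in FMTg replicate 2. Of 13 endothelial markers none lay apart, with a median of 0.18. Of 12 smooth muscle and pericyte markers none lay apart, with a median of 0.18, while without FMTg replicates 4 and 5 the median was -0.04 and 2 lay above in all libraries. The part of these cell types in the differences of other lists was not tested.

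Genes of antigen presentation by MHC class II were among the 10 of smallest p in the higher direction. Cd74, the invariant chain that guards the MHC class II groove, stood at 1335, 893 and 912 against 2723, 2270.4, 2247, 2186 and 2914. H2-Ab1, a chain of the class II molecule itself, stood at 482, 354 and 301 against 1039, 907, 839.7, 1221 and 1605. Both were higher in 5 of 5 FMTg hearts, by 1.25 ± 0.17 (limma adjusted p = 0.14) and 1.54 ± 0.24 (limma adjusted p = 0.228), and neither passed. Among 11 class II pathway genes, a list chosen after these values were seen, 4 lay above in all libraries (3.42% over all genes tested), with a median of 0.93. Their summed share of reads was 0.0135% to 0.0223% in Tg and 0.0241% to 0.0427% in FMTg, with FMTg replicates 2 and 1 close together (0.0427% and 0.0415%). In normalised reads FMTg replicate 1 was highest (6578, against 5683 in FMTg replicate 2). FMTg replicate 2 was highest for the shares of fibroblast and macrophage markers, but not for Cd74 or H2-Ab1. The part of cell types in these differences was not tested. Klhdc7a, a kelch domain protein that was also among the 10 genes higher, was higher by 1.41 ± 0.22 (limma adjusted p = 0.228).

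The heart response was then set against the other 4 tissues of the series in a joint model of the 40 libraries, in which libraries of 1 mouse were allowed a shared deviation (correlation 0.252). The difference between the heart effect and the mean of the other effects was called for 2 genes in the positive direction (0.0127% of 15769) and for 1 in the negative direction (0.00634%), and 1079 genes had an unadjusted p below 0.05. The same 3 Tg mice served as controls in all tissues. The 3 genes are named because they were called, after their values were seen, except that Inka2 and Col15a1 also fell under the naming rule. Oaf, the mouse counterpart of a fly gene named out at first, encodes a secreted protein. It stood at 157, 136 and 152 normalised reads in Tg hearts and at 286, 529, 282, 821 and 409 in FMTg hearts. The heart difference was 1.49 ± 0.34, against 0.13 in pancreas, 0.07 in kidney, 0.29 in ovary and 0.08 in small intestine, so the heart value was the highest of the 5 (difference 1.38 ± 0.23, limma adjusted p = 0.00838).

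Col15a1, a collagen chain of basement membranes around muscle and capillaries, stood at 760.2, 885 and 444 in Tg hearts and at 2105, 2810.0, 1824, 1673 and 1668 in FMTg hearts. The heart difference was 1.55 ± 0.26 against a mean of 0.12 in the other tissues (difference 1.46 ± 0.25, limma adjusted p = 0.00838). Neither Oaf nor Col15a1 passed the test of the heart alone (limma adjusted p = 0.641 and 0.315). Inka2, a p53 target whose protein inhibits Pak4, a kinase of the cytoskeleton, went the other way. It stood at 545, 711 and 641 in Tg hearts and at 977, 804, 982, 634 and 897 in FMTg hearts, overlapping groups with a difference of 0.43 ± 0.17. In the other tissues it was 2.89 in pancreas, 3.42 in kidney, 1.31 in ovary and 1.54 in small intestine, so the heart difference was the smallest of the 5 (difference -1.81 ± 0.31, limma adjusted p = 0.00838). All 3 calls were lost when FMTg replicates 4 and 5 of every tissue were left out (adjusted p = 0.141, 0.141 and 0.21), while the differences were 1.19 for Oaf, 1.58 for Col15a1 and -1.61 for Inka2.

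**Figure D5:**
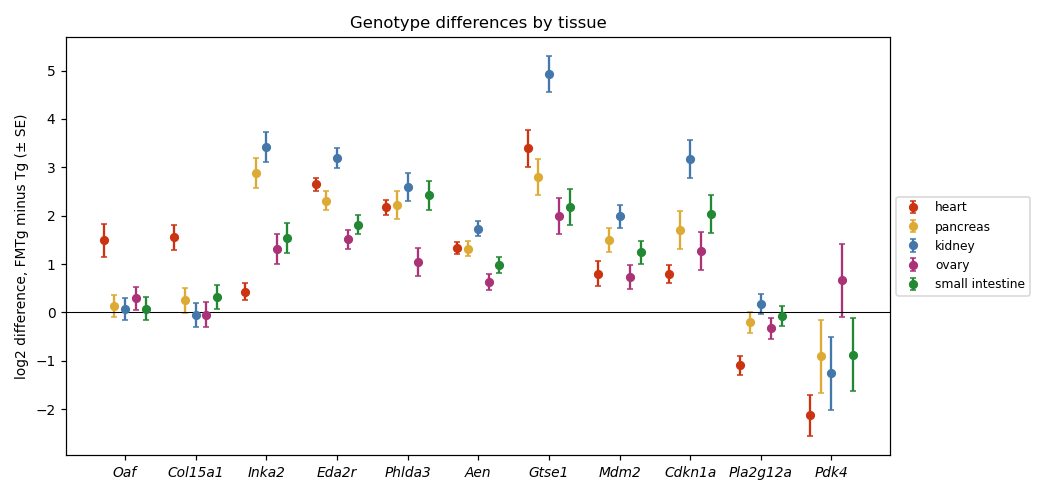
Log2 difference between FMTg and Tg (± SE) in 5 tissues for 11 genes. Heart values come from the fit of the 8 heart libraries and the others from the model of all 40 libraries. Oaf and Col15a1 stand apart in heart (1.49 and 1.55), and Inka2 is lowest in heart (0.43).

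For the 3 genes that rose in the heart, the test of the difference from the other tissues did not pass. The heart effect minus the mean of the others was 0.46 ± 0.20 for Eda2r, 0.21 ± 0.29 for Phlda3 and 0.18 ± 0.16 for Aen, with limma adjusted p from 0.678 to 0.991. For Mdm2 the heart difference of 0.80 stood beside 1.497 in pancreas, 1.99 in kidney, 0.73 in ovary and 1.24 in small intestine, and for Cdkn1a 0.79 stood beside 1.70, 3.18, 1.27 and 2.03. The difference of the heart from the mean of the others was -0.58 ± 0.24 for Mdm2 and -1.10 ± 0.39 for Cdkn1a, and neither passed (limma adjusted p = 0.645 and 0.575). Of the genes lower in heart, Pla2g12a had the smallest p in this comparison (-0.997 ± 0.21, limma adjusted p = 0.0796), with -0.21 in pancreas, 0.18 in kidney, -0.33 in ovary and -0.08 in small intestine.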

How the data were processed

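Total RNA of mouse tissues was extracted with Trizol, per the labels' protocols. The submitters' processing notes name STAR 2.6.0b, the build GRCm38 and DESeq2. The read counter, annotation and strand setting are not given in the sources used here, so reads of overlapping genes on opposite strands cannot be told apart. The deposited values are log2 variance-stabilised values of 40 libraries, and a gene without reads has the lowest value, 1.65. Inverting the transformation gave whole reads for 100% of values (tolerance 0.01). Gene positions are those of GENCODE M21, in which 18003 of 18024 genes were found by ID.

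The 8 heart libraries were compared with limma 3.58.1 (R 4.3.3, statmod 1.5.0), with genotype as the only term and a variance trend, on the deposited log2 values. The test ran over the 15769 genes whose heart mean exceeded that lowest value by 1 or more, with Benjamini-Hochberg adjustment over all of them and calls at an adjusted p below 0.05. Differences are FMTg minus Tg, with the SE of the model, and folds are powers of 2 of them, compressed toward 1 for genes with few reads. The text names Mdm2, Trp53 and Cdkn1a, called genes, the 10 genes of smallest p in each direction and up to 6 members of smallest p per p53 list, up to 4 per other list. The members and lists were chosen with earlier results of these data known. Alternatives were voom on recovered reads, filters, scales, normalizations, variance models, library weights, 1 model of all libraries, leaving libraries out, and a replicate block. The procedure was also run on simulated reads, drawn independently for each library. The simulation held no shared mouse effects and no libraries that stand apart, so it does not cover these. Replicates are separate mice, per the labels. Sequences are from RefSeq, GRCm38.p6. A single sarcomere gene is not reported here.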

Additional observations from a re-analysis of the deposited data

Results flagged for a closer look

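Of 69 named genes and summed list shares examined in the 5 FMTg hearts, 10 had a highest or lowest library whose gap to the nearest other exceeded the 95% critical value of 0.71 of the range in Dixon's test. Chance gives about 1 in 20. FMTg replicate 2 was that library in 9 of them. It held 519 normalised reads of Gtse1, far above the others, and 4633 of Bnip3, far below. It had the lowest summed share of fatty acid oxidation genes (0.806% of reads). It had the highest share of interferon-stimulated genes (0.0838%), fibroblast and matrix markers (2.14%), epicardial and mesothelial markers (0.0546%), macrophage markers (0.304%), neutrophil markers (0.145%) and platelet markers (0.0631%). FMTg replicate 4 had the highest share of thymus markers (7.33e-04%), a list of which 2 of 7 genes had no read in any heart library.

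Effects of genotype differed between the heart and the mean of the other tissues, by the test of the difference itself, for Inka2 (-1.81), Col15a1 (1.46) and Oaf (1.38), on the log2 scale.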

How the results depend on the processing

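The count of 3 heart genes changed was 2 to 4 under other filters, scales, normalizations and variance models and with voom. It was 26 with library weights (23 higher, 3 lower), 27 in 1 model of all libraries (23 higher, 4 lower), 1 without the mice of FMTg replicates 4 and 5, and 2 without FMTg replicates 2, 4 and 5, an alternative added after seeing the data. Leaving out 1 library gave 1 to 4 genes, the lowest without Tg replicate 2. With the replicate number as a block, which keeps only the 6 libraries of replicates 1 to 3, 0 genes were called, and the adjusted p was 0.455 for Eda2r and 0.631 for Phlda3 and Aen. The deviations of same-numbered libraries correlated for 1 of 3 numbers (0.03, -0.07 and 0.55), so the numbers were not taken to pair mice. The 3 differences from other tissues became 0 without FMTg replicates 4 and 5 of every tissue and 6 against the kidney alone. The Trp53 difference (0.11) turned sign with library weights (-0.0060) and without Tg replicate 3 (-0.0099, exact permutation p = 0.952), and also without FMTg replicates 2, 4 and 5 (-0.14). With 1 library left out it ran from -0.0099 to 0.26. Exact permutation p values with 1 library left out ran from 0.0571 to 0.143 for Mdm2, 0.457 to 1.0 for Trp53 and 0.0286 to 0.0476 for Cdkn1a, whose values are the smallest that 7 libraries allow and were 0.0857 to 0.143 adjusted over the 3 genes. Over 80 named genes and 21 alternatives, 1633 of 1680 values kept direction and side of the threshold, 30 newly passed, 14 no longer passed and 3 turned sign. Most of these genes did not pass at first, so keeping the side meant not passing again. Only the 3 called genes could lose a call, and the 14 losses were theirs. Of 21 alternatives Eda2r was called in 20, Phlda3 in 18 and Aen in 11. For values that crossed the threshold or turned sign, the cause was not tested beyond the loss of libraries itself. Depth limits genes with few reads, such as Celf5. With 3 Tg libraries from 3 mice, the spread of the controls rests on few values.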
